A study of Homo sapiens with 6 samples.

Results

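The proteasome genes were taken as every gene name in the tables made of PSM, 1 letter from A to G and digits. The rule found 48 genes among 34644 gene names, and rows that shared a name were summed. It left out 7 other PSM names, namely the antisense genes PSMA3-AS1, PSMB8-AS1, PSMD6-AS2 and PSMG3-AS1, the divergent transcript PSMD7-DT, and PSMC3IP and PSME3IP1, which encode interacting proteins. The data were bulk RNA-seq of HK-2 cells, an immortalised line of human proximal tubule cells, that had all received 8 Gy of X-rays and were collected on day 7. The lentivirus carried either a negative control (IR+NC-LV) or PRDM16 for its overexpression (IR+PR-LV), with 3 libraries a group. Both groups were irradiated, so no value describes unirradiated cells, and the labels do not say whether the libraries came from separate infections, so that the p-values may measure technical spread.

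The proteasome is the protease that degrades proteins tagged with ubiquitin. Its barrel, the 20S core particle, is built of stacked rings of alpha subunits, which form the gate, and beta subunits, some of which carry the active sites. The 19S regulatory particle binds ubiquitin, unfolds the substrate with a ring of ATPases and feeds it into the barrel. Interferon-induced immunosubunits can replace the catalytic beta subunits, and the PA28 activators can replace the 19S particle. The genes of the constitutive particle are known to be induced together by the transcription factor NRF1 (gene NFE2L1) when proteasome activity falls.

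PRDM16 had 2, 0 and 1 counts in the libraries of IR+NC-LV, against 14, 10 and 8 in those of IR+PR-LV. The libraries held 13407074 to 28540041 counts, and the 48 genes together took 0.660 to 0.727% of them. Of the epithelial markers KRT8 stood at 772 to 969 TPM (counts per base of exon, scaled to a sum of 1000000 in every library) and CDH1 at no more than 0.581 TPM. EPCAM stood at 47.3 to 52.3 TPM in IR+NC-LV against 52.7 to 59.6 TPM in IR+PR-LV, without overlap (log2 fold change 0.22, edgeR adjusted p = 0.472), and all 5 epithelial markers had positive log2 fold changes. Most proximal tubule markers were near 0, with HNF4A at no more than 0.0309 TPM and LRP2 at no more than 0.0112 TPM, while GGT1 stood at 56.2 to 77.0 TPM. Of the immune markers PTPRC reached 0.0780 TPM and CD68 stood at 181 to 199 TPM in IR+NC-LV against 154 to 169 TPM in IR+PR-LV, without overlap (log2 fold change -0.22, edgeR adjusted p = 0.399), and the part of either marker difference in the values below was not tested. The summed endothelial markers stayed below 0.544 TPM.

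The promoter windows in the RefSeq table (GRCh38.p14, 250 bases before and 50 after a start site, 51 windows for 42 of the 48 genes) are shown where they hold letters that fit the pathway's known regulators. PSMA7, PSMB1, PSMB6, PSMB7, PSMD4 and PSMG3 had no window. The core of the interferon-stimulated response element, written as GAAA, any 2 bases and GAAA, was found on either strand in 7 windows, or 13.7%, against 3.57% of all 35116 windows. These were windows of PSMA4, PSMB4, PSMB8, PSMB10, PSME1, PSME2 and PSMG4, so the list held 2 of the 3 immunosubunits and both genes of the PA28 heptamer. The matches of these last 4 genes are shown first, with the matched letters in capitals, 5′ to 3′ on the strand of the gene.
PSMB8, chr6:32844032-32844061, minus strand: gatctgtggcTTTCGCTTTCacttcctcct
PSMB10, chr16:67936826-67936911, minus strand: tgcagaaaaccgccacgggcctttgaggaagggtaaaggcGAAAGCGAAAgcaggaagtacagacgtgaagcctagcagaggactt
PSME1, chr14:24136159-24136218, plus strand: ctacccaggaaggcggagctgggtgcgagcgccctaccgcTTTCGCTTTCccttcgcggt
PSME2, chr14:24146619-24146648, minus strand: cctggggagtGAAAGCGAAAgcccgggcga
With the start site as 0, the PSMB8 match covered bases -4 to 5, the PSMB10 match -21 to -12, the PSME1 match 5 to 14 and the PSME2 match -28 to -19. The start sites used for PSMB8 and PSME2 lay inside the gene span given in the files.

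TGACNNNGC, the core of the antioxidant response element that NRF1 and its relative NRF2 bind, was found in 15 member windows, or 29.4%, against 13.3% of all windows. The 15 genes were PSMA4, PSMB3, PSMB9, PSMC4, PSMC5, PSMD1, PSMD3, PSMD5, PSMD9, PSMD12, PSME1, PSME2, PSME4, PSMG1 and PSMG2. The windows of PSMB9 and PSMG1 are shown because both genes had no overlap between the groups in the values below. PSMC4 had none either, but its match, at bases 27 to 35, lay after the start site and is not printed. PSMB10, PSMD7 and PSME3 also had no overlap in TPM, but their windows held no such match, and PSMB6 had no window.
PSMB9, chr6:32854004-32854092, plus strand: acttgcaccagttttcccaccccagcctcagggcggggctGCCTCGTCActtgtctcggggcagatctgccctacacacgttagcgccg
PSMG1, chr21:39183586-39183674, minus strand: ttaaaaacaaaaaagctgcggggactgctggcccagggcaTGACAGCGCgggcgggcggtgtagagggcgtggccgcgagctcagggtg
The PSMB9 match covered bases -148 to -140 from its start site and the PSMG1 match -183 to -175. The start site used for PSMG1 lay inside its deposited gene span. TTCNNNGAA, the gamma-interferon activated site, was in 8 member windows (15.7%, against 7.66% of all) and CCAAT in 20 (39.2%, against 34.6%). Among the 59 matches in member windows, 0 pairs of different motifs shared a base. These matches are letters in a window and were not set against any binding data.

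The levels of the core subunits spanned a wide range in TPM. PSMB4, a beta subunit without an active site, had the highest mean level at 1001 TPM, with 1083, 1063 and 933 TPM in the libraries of IR+NC-LV, against 1003, 969 and 953 TPM in those of IR+PR-LV. PSMB1, another such subunit, followed with 995, 1015 and 908.5 TPM against 911, 1045 and 1003 TPM. PSMA7, an alpha ring subunit, had 950, 955 and 888 TPM against 1106, 919.5 and 921 TPM. The groups overlapped for all 3 genes, and each library's values for the 3 lay so close that their order was not the same from library to library.

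The remaining alpha subunits had mean levels from 140 TPM (PSMA4) and 141 TPM (PSMA5) through PSMA6 (330 TPM), PSMA1 (343 TPM) and PSMA2 (426 TPM) to PSMA3 (540 TPM). PSMB2, the remaining beta subunit without an active site that was listed in 1 row, averaged 227 TPM. A core particle holds equal numbers of the 14 constitutive subunits, yet the highest exceeded the lowest 6.77 to 8.47-fold within a library over the 13 subunits listed once. TPM divides by all exon bases, and these ran from 844 for PSMB6 to 4528 for PSMB2. What part the annotated length had in this range was not tested. When the same counts were divided by the longest coding length in GENCODE release 29, which ran only from 603 to 831 bases over the 14 subunits, the range over the 13 fell to 3.03 to 3.58-fold. On that scale PSMB2 was highest, at 521 CPM (read counts scaled to library size) per coding kilobase, and PSMB6 lowest among the 13, at 164. The counts came from all exon bases, so this scale raises genes with long untranslated exons, such as PSMB2 with its 603 coding bases.

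The range was also narrower per coding length for the 16 subunits of the 19S particle listed once. Their mean TPM ran 9.22-fold, from PSMC1 (72.7 TPM) to PSMD2 (670 TPM), and 2.97-fold per coding length, from PSMD1 (76.5 CPM per coding kilobase) to PSMD2 (227). PSMD2 is a large scaffold subunit of the 19S base, and it was highest on both scales. Across the 40 tested genes listed once, Spearman's rho between mean TPM and exon bases was -0.65, and it was -0.24 between the coding-length level and exon bases. TPM has exon bases as its divisor, so a negative value is partly built into the first of these. The 2 values describe genes that share libraries and carry no test.

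**Figure D1:**
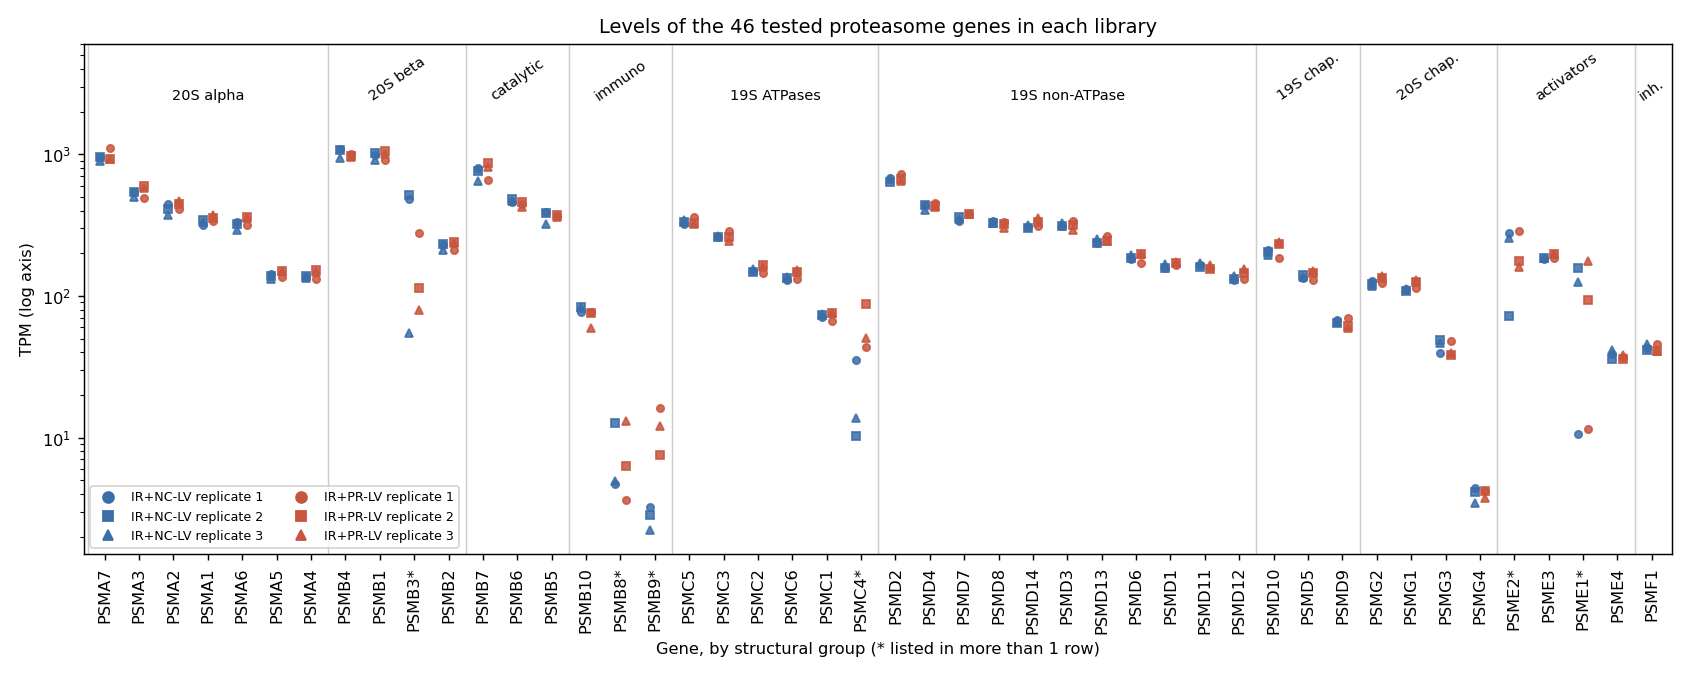
Level in TPM (log axis) of the 46 tested proteasome genes in each library, by structural group, with IR+NC-LV in blue and IR+PR-LV in red and 1 symbol per replicate. Genes listed once kept close to 1 level in all 6 libraries, while the genes marked with an asterisk scattered, PSME1 from 10.5 to 175 TPM.

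PSMA8, the alpha subunit of the testis, had 1 count in all, in IR+NC-LV replicate 1. PSMB11, the catalytic subunit of the thymus, had 0 counts in all 6 libraries, which allows up to 0.105 CPM in the deepest library and 0.224 in the shallowest. Both fell under the filter on low counts, so that 46 of the 48 genes were tested. The lowest tested gene was PSMG4, a chaperone of core assembly, with 4.397, 4.121 and 3.455 TPM in IR+NC-LV against 4.22, 4.21 and 3.74 TPM in IR+PR-LV. It is also the gene with the longest annotated exons, 10891 bases, and it ranked 42 of 48 per coding length against 46 of 48 in TPM.

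Genes listed once were steady across the libraries. The highest of the 6 TPM values exceeded the lowest by 1.09 to 1.41-fold over the 40 such genes, with a median of 1.165. The SD of log2(TPM + 1) within groups had a median of 0.0796, against 0.120 over all 14393 tested genes listed once. The 40 had a median level of 219 TPM, and the 14393 genes were not matched to them on level. The 6 genes listed in more than 1 row behaved otherwise. Their highest value exceeded the lowest by 3.61 to 16.6-fold, and their within-group SD had a median of 0.796, against 0.321 over the 661 tested genes listed several times. These were PSMB3, PSMC4, PSME1 and PSME2, with 2 rows each, and PSMB8 and PSMB9, with 8 rows each, the extra rows lying on alternate scaffolds of the assembly.

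The rows shared the counts very unevenly. PSMB3, a beta subunit without an active site, had 1912, 2583 and 164 counts in IR+NC-LV against 1110, 754 and 338 in IR+PR-LV on its alternate scaffold, and 0 to 3 counts on chromosome 17. PSMC4, an ATPase of the 19S ring, had 361, 133 and 106 against 446, 1518 and 567 counts on chromosome 19 and 0 to 3 on its scaffold. PSME1 and PSME2, the subunits of PA28, held nearly all their counts on chromosome 14. PSME1 had only 62 counts in IR+NC-LV replicate 1 and 69 in IR+PR-LV replicate 1, where the other libraries had 567 to 1190. PSME2 was lowest in IR+NC-LV replicate 2, with 456 counts against 858 to 1465 elsewhere. Of the counts of PSMB8 and PSMB9, 97.9% and 89.5% lay on the 7 alternate scaffolds of the major histocompatibility region. What part the division of reads among near-identical copies had in the values of these 6 genes was not tested, and their levels are uncertain.

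**Figure D2:**
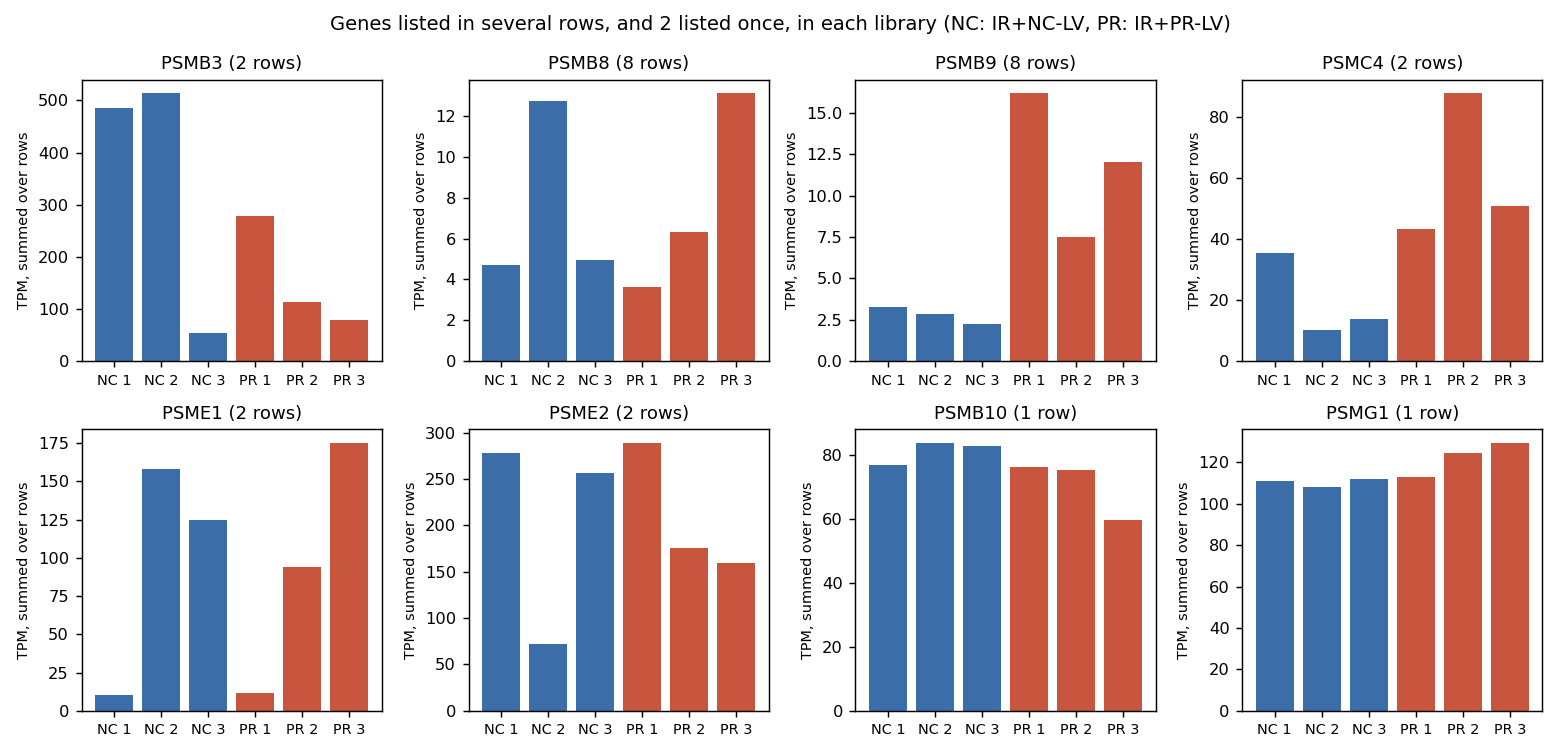
TPM summed over rows in each library for the 6 genes listed in several rows and, for scale, for PSMB10 and PSMG1, which were listed once (bars start at 0, blue IR+NC-LV, red IR+PR-LV). The 6 genes differed 3.61 to 16.6-fold between their lowest and highest library, and PSMB10 differed 1.41-fold.

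Setting the groups against each other asked which genes differed with PRDM16 in irradiated cells. No proteasome gene passed an adjusted p of 0.05 (quasi-likelihood test of edgeR, p adjusted by Benjamini-Hochberg over 15054 genes), where 12 of all genes, or 0.0797%, did (0.0266% on the higher side and 0.0531% on the lower). At an unadjusted p under 0.05 there were 7 of 46 genes, all higher in IR+PR-LV, or 15.2%, where the share of all tested genes was 10.5% in either direction, 4.41% higher and 6.09% lower. These were the immunosubunit PSMB9, the ATPases PSMC4 and PSMC6, the 19S subunits PSMD1, PSMD7 and PSMD14, and the assembly chaperone PSMG1. The count rests on single libraries. It was 20 without IR+PR-LV replicate 1 (19 higher), or 43.5% of the 46, with 16.5% of all tested genes under the same threshold. It was 2 without IR+PR-LV replicate 2, and 3 without the third IR+PR-LV library, and likewise without replicate 1 or replicate 3 of IR+NC-LV. These 2 genes were 4.35% of the 46, against 6.15% of all tested genes. The 3 genes were 6.52%, against 8.48%, 6.47% and 9.10%. These background shares count both directions, whereas the proteasome genes counted were mostly higher. The background on the higher side alone was not computed without 1 library, so these shares do not show whether the higher side exceeded it. DESeq2 called 1 of the 46 genes, PSMB9 (background 1.02%), and had 6 at an unadjusted p under 0.05, all higher (background 8.21% in either direction).

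The log2 fold change was positive for 36 of the 46 genes, against 51.1% of all tested genes. The median over the 46 was 0.09 and the median of all tested genes was 0.00. Among the 40 genes listed once the log2 fold changes lay between -0.16 and 0.19, with standard errors of 0.05 to 0.13, and their 95% intervals reached, as folds, no lower than 0.748 (PSMB10) and no higher than 1.32 (PSMB7). In TPM the groups did not overlap for 7 genes, or 15.2%, where the share over all tested genes was 15.6%. They were PSMB9, PSMC4, PSMD7, PSME3 and PSMG1 on the higher side (background 4.21%) and PSMB6 and PSMB10 on the lower side (background 11.3%). In CPM with TMM factors, which do not fix the sum over genes, 8 were on the higher side (background 7.45%), the same 5 with PSMD1, PSMD13 and PSMD14, and 0 on the lower (background 9.56%), so that the split depended on the scale.

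**Figure D3:**
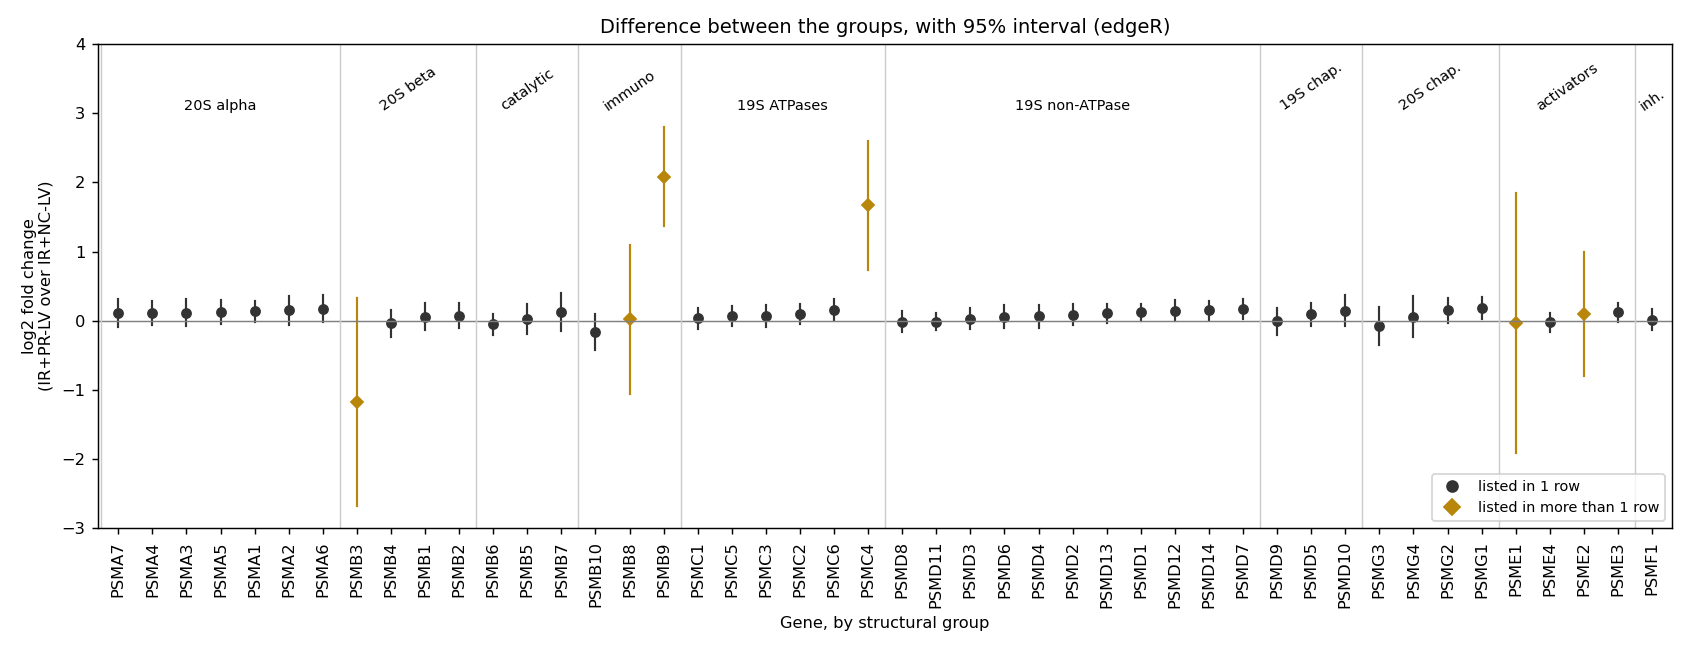
The log2 fold change of IR+PR-LV over IR+NC-LV with its 95% interval from edgeR for the 46 tested genes, by structural group, with genes listed once as black circles and genes listed in more than 1 row as brown diamonds. The genes listed once lay between -0.16 and 0.19, and the large values and wide intervals all belonged to genes listed several times.

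The constitutive catalytic subunits had log2 fold changes between -0.05 and 0.13, and 0 of 3 reached an unadjusted p under 0.05. PSMB5 (chr14:23025851-23035220), which carries the chymotrypsin-like site, had 390, 384 and 322 TPM in IR+NC-LV against 364, 370 and 359 TPM in IR+PR-LV, with a log2 fold change of 0.03 ± 0.10 (SE, adjusted p = 0.931 by edgeR). PSMB6 (chr17:4796164-4798495), which carries the caspase-like site, had 464, 483.5 and 465 TPM against 442, 459 and 422 TPM. Each of its IR+PR-LV libraries was below each IR+NC-LV library in TPM, though not in CPM, with a log2 fold change of -0.05 ± 0.07 (SE, edgeR adjusted p = 0.824). PSMB7 (chr9:124353465-124415442), which carries the trypsin-like site, had 794, 756 and 645 TPM against 663, 864 and 810 TPM, with overlap at IR+PR-LV replicate 1. Its log2 fold change was 0.13 ± 0.12 (SE, edgeR adjusted p = 0.754). Exons on the opposite strand, of LOC100129034, covered 39.5% of the exon bases of PSMB7, and whether reads were counted by strand is not given in the sources used here.

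In summed TPM the immunosubunits were far below their constitutive counterparts. The levels of PSMB8 and PSMB9, listed in 8 rows each, are uncertain, whereas PSMB10 and the constitutive subunits were listed once. PSMB10 (chr16:67934506-67936850), which takes the place of PSMB7, was the highest, with 76.8, 83.8 and 82.7 TPM in IR+NC-LV against 76.4, 75.3 and 59.6 TPM in IR+PR-LV. The IR+PR-LV libraries were all lower in TPM and overlapped with the others in CPM, and IR+PR-LV replicate 1 missed the lowest IR+NC-LV library by less than 1 TPM. The log2 fold change was -0.16 ± 0.11 (SE, edgeR adjusted p = 0.665). PSMB8 (chr6:32840717-32844679), which takes the place of PSMB5, had 4.70, 12.7 and 4.93 TPM against 3.64, 6.35 and 13.1 TPM. Its groups overlapped fully, and the 95% interval of its log2 fold change ran from -1.06 to 1.09.

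PSMB9 (chr6:32854192-32859851), which takes the place of PSMB6, had the largest difference of all members. It had 17, 19 and 9 counts in IR+NC-LV against 86, 67 and 69 in IR+PR-LV, or 3.24, 2.83 and 2.22 TPM against 16.2, 7.50 and 12.04 TPM. All 3 IR+PR-LV libraries were above all 3 IR+NC-LV libraries. The log2 fold change was 2.08 ± 0.32 (SE), a 4.23-fold difference with a 95% interval from 2.58 to 6.93, at an unadjusted p of 7.7e-05 and an adjusted p of 0.0574 by edgeR. The adjusted p was 4.2e-05 by DESeq2, 6.8e-11 by edgeR with no filter on low counts, and 0.0187 to 0.204 by edgeR without 1 library, the lowest being without IR+PR-LV replicate 2, so the call depended on the settings. The reads of the 3 IR+PR-LV libraries fell on different rows. In replicate 1 a single scaffold took 43 of 86 counts, and it took 0 in the other IR+PR-LV libraries. In replicate 2 a second scaffold took 34 of 67 counts, and in replicate 3 another took 40 of 69, where chromosome 6 itself took 17.

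As a ratio to the constitutive subunit in TPM, PSMB9 was 0.588% ± 0.111 of PSMB6 in IR+NC-LV against 2.71% ± 1.02 in IR+PR-LV (SD, n = 3 each, exact permutation test, two-sided, p = 0.1, the smallest that 3 against 3 can give, and 0.3 adjusted over 3 pairs). With only the row with the most counts for each gene the exact p was 0.2. PSMB10 was 11.2% ± 1.57 of PSMB7 against 9.20% ± 2.12 (SD, n = 3, exact p = 0.3, 0.45 adjusted), and the groups overlapped. PSMB8 was 2.02% ± 1.14 of PSMB5 against 2.12% ± 1.38 (SD, n = 3, exact p = 1). The ratios of PSMB8 and PSMB9 set genes listed in several rows against genes listed once, so their height is uncertain. The sum of the 3 immunosubunits was 91.3 ± 7.43 TPM against 90.05 ± 5.74 TPM (SD, n = 3), and PSMB10 made up most of it. Within it the mean of PSMB9 was higher in IR+PR-LV (2.76 against 11.9 TPM) and that of PSMB10 lower (81.1 against 70.4 TPM), which offset each other. PSMB8 averaged 7.46 against 7.70 TPM.

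In the alpha ring, all 7 genes had positive log2 fold changes, from 0.11 (PSMA7) to 0.17 (PSMA6), and 0 of 7 reached an unadjusted p under 0.05. PSMA1 had the smallest p of them, with a log2 fold change of 0.14 ± 0.07 (SE, edgeR adjusted p = 0.506). The summed alpha ring was 2864, 2839 and 2651 TPM in IR+NC-LV against 2932, 2975 and 2999 TPM in IR+PR-LV, so the groups did not overlap and differed by 1.07-fold (exact permutation test, two-sided, n = 3, p = 0.1). Taken singly, 0 of the 7 genes were without overlap in TPM. In IR+PR-LV replicate 1 PSMA7 was at 1106 TPM, above its 888 to 955 TPM in IR+NC-LV. The median deviation of the 7 genes from their own means of log2(TPM + 1) was -0.05 in that library. The beta subunits without an active site that were listed once, PSMB1, PSMB2 and PSMB4, summed to 2223 ± 147 TPM against 2190 ± 66.1 TPM (SD, n = 3, exact p = 0.8). PSMB3 had a log2 fold change of -1.18 ± 0.67 (SE, edgeR adjusted p = 0.58), but its 486, 514 and 54.3 TPM against 279, 113 and 79.3 TPM overlapped. Over the 14 constitutive core subunits the sums were 6927 ± 638 and 6900 ± 122 TPM (SD, n = 3, exact p = 1), and over the 13 listed once they were 6575 ± 381 and 6743 ± 203 TPM (SD, n = 3, exact p = 0.6), so that the sign of the difference turned with PSMB3. It turned with the scale as well, since the 14 summed to 1.05 times the control level in CPM (exact p = 0.8). In CPM the alpha ring was 1.10-fold higher and again without overlap.

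The ATPases of the 19S base, PSMC1 to PSMC6, all had positive log2 fold changes. PSMC4 was the only one without overlap, with 35.4, 10.2 and 13.7 TPM in IR+NC-LV against 43.3, 87.7 and 50.8 TPM in IR+PR-LV. Its log2 fold change was 1.67 ± 0.42 (SE, edgeR adjusted p = 0.214). By edgeR without 1 library the adjusted p ran from 0.0292 to 0.654. It was lowest without IR+NC-LV replicate 1, whose level lay nearest to the other group, and highest without IR+PR-LV replicate 2. PSMC4 was listed in 2 rows, so its level is uncertain. PSMC6 had 129, 133 and 135 TPM against 132, 147 and 151 TPM, a log2 fold change of 0.16 ± 0.07 (SE, edgeR adjusted p = 0.45). PSMC1, PSMC2, PSMC3 and PSMC5 had log2 fold changes of 0.04 to 0.10. The 5 ATPases listed once summed to 948 ± 22.4 TPM against 976 ± 18.98 TPM (SD, n = 3, exact p = 0.2), with overlap, and were 1.06-fold higher without overlap in CPM (exact p = 0.1). Opposite-strand exons covered 61.4% of the exon bases of PSMC1 (NRDE2), 22.9% of PSMC2 (SLC26A5) and 5.04% of PSMC5 (FTSJ3).

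Among the 11 non-ATPase subunits of the 19S particle, 9 had positive log2 fold changes (background 51.1%) and 3 were at an unadjusted p under 0.05, all higher (background 4.41%). PSMD7, which forms a pair with the deubiquitinase of the lid, had 335, 361 and 348 TPM in IR+NC-LV against 381, 380.5 and 381 TPM in IR+PR-LV. The 3 IR+PR-LV values were nearly equal and all above the control values, and the log2 fold change was 0.17 ± 0.06 (SE, edgeR adjusted p = 0.405). PSMD14, that deubiquitinase, had 307, 302 and 317 TPM against 311, 333 and 353 TPM, with overlap at IR+PR-LV replicate 1 and a log2 fold change of 0.15 ± 0.06 (SE, edgeR adjusted p = 0.452). PSMD1, a scaffold of the base, had 157, 157 and 168 TPM against 166, 170 and 174 TPM and a log2 fold change of 0.12 ± 0.05 (SE, edgeR adjusted p = 0.472).

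Of the remaining lid and base subunits, PSMD12, PSMD13, PSMD2, PSMD4 (a ubiquitin receptor), PSMD6 and PSMD3 had log2 fold changes from 0.14 down to 0.03, and PSMD8 and PSMD11 had -0.01 each. The non-ATPase subunits summed to 3278 ± 40.8 TPM in IR+NC-LV against 3378 ± 54.2 TPM in IR+PR-LV (SD, n = 3), a 1.03-fold difference without overlap (exact permutation test, two-sided, p = 0.1). The chaperones of 19S assembly, PSMD5, PSMD9 and PSMD10, had log2 fold changes of 0.09, -0.01 and 0.15 and summed to 405 ± 8.67 against 424 ± 34.1 TPM (SD, n = 3, exact p = 0.4).

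The chaperones of core assembly work in pairs, PSMG1 with PSMG2 and PSMG3 with PSMG4. PSMG1 had 111, 108 and 112 TPM in IR+NC-LV against 113, 124 and 129 TPM in IR+PR-LV. The groups did not overlap, but IR+PR-LV replicate 1 lay next to the control libraries, and the log2 fold change was 0.19 ± 0.07 (SE, edgeR adjusted p = 0.408), the largest among genes listed once. Its partner PSMG2 had a log2 fold change of 0.15 ± 0.08 (SE, edgeR adjusted p = 0.573), whereas PSMG3 had -0.07 and PSMG4 0.06. The 4 chaperones summed to 281 ± 1.51 TPM against 300 ± 11.3 TPM (SD, n = 3), without overlap (exact permutation test, two-sided, p = 0.1).

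Of the activators, PSME3, the nuclear PA28 gamma, had 182, 184 and 184 TPM in IR+NC-LV against 186, 198 and 199 TPM in IR+PR-LV, without overlap and with a log2 fold change of 0.12 ± 0.06 (SE, edgeR adjusted p = 0.517). PSME4, the PA200 activator, had a log2 fold change of -0.02 ± 0.06 (SE, edgeR adjusted p = 0.918). PSME1 had 10.5, 158 and 125 TPM against 11.6, 93.9 and 175 TPM, and its 95% interval on the log2 scale ran from -1.91 to 1.85. PSME2 had 279, 72.6 and 257 TPM against 289, 175 and 160 TPM, with an interval from -0.79 to 0.99. As folds the interval of PSME1 ran from 0.266 to 3.61 and that of PSME2 from 0.577 to 1.99, so differences within these ranges were not excluded. PSMF1, an inhibitor of the core particle, had a log2 fold change of 0.02 ± 0.07 (SE, edgeR adjusted p = 0.948).

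The libraries did not divide by group alone. Relative to each gene's own mean over the 6 libraries of log2(TPM + 1), the 13 core subunits listed once had median deviations of 0.01, 0.00 and -0.10 in IR+NC-LV replicates 1 to 3 and of -0.05, 0.09 and 0.08 in IR+PR-LV replicates 1 to 3. The 16 subunits of the 19S particle listed once had -0.04, -0.02 and 0.02 against 0.03, 0.02 and 0.03. IR+NC-LV replicate 3, the shallowest library, was thus lowest for the core and not for the 19S particle, and over all tested genes listed once it was the highest, at 0.08. IR+PR-LV replicate 1 was low for the core as well, and this is the library whose removal raised the count of genes at an unadjusted p under 0.05 to 20. The summed core over the summed 19S particle in TPM was 1.62, 1.62 and 1.43 in IR+NC-LV against 1.47, 1.60 and 1.58 in IR+PR-LV, with overlap (exact permutation test, two-sided, n = 3, p = 1).

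Of 36 other genes of the pathway, in 5 lists, all were tested, 0 passed an adjusted p of 0.05 and 7 had an unadjusted p under 0.05, 4 higher and 3 lower in IR+PR-LV (background 10.5% in either direction, 4.41% higher and 6.09% lower). The log2 fold change was positive for 19 of the 36 (background 51.1%). Among the interferon regulators of the immunoproteasome, IRF1, a transcription factor that induces PSMB9, had 43.9, 43.0 and 58.2 TPM in IR+NC-LV against 33.2, 29.6 and 31.1 TPM in IR+PR-LV. The 3 IR+PR-LV libraries were all lower, by a log2 fold change of -0.58 ± 0.10 (SE, edgeR adjusted p = 0.0641), the reverse of the sign of PSMB9. TAP1, the peptide transporter gene that neighbours PSMB9 and was also listed in 8 rows, had 1.156, 1.329 and 2.111 TPM against 2.08, 2.60 and 3.23 TPM, with a log2 fold change of 0.86 ± 0.25 (SE, edgeR adjusted p = 0.284). TAP2, its partner in the transporter, had a log2 fold change of 0.38 ± 0.15 (SE, edgeR adjusted p = 0.409), and NLRC5 and TAPBP had -0.08 and 0.38 (edgeR adjusted p = 0.813 and 0.684).

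NFE2L1, which encodes the NRF1 that induces proteasome genes, had 185, 183 and 196 TPM in IR+NC-LV against 193, 171 and 169 TPM in IR+PR-LV, with a log2 fold change of -0.04 ± 0.07 (SE, edgeR adjusted p = 0.858). In its list NFE2L2, which encodes the related NRF2, had 137, 141 and 172 TPM against 123, 130 and 126 TPM (log2 fold change -0.20 ± 0.07, edgeR adjusted p = 0.391), and MAFF, a small partner of both factors, had -0.30 ± 0.08 (SE, edgeR adjusted p = 0.233), with no overlap. VCP, an unfoldase upstream of the proteasome, and NGLY1, which processes NRF1, had the highest values of the list, at 0.09 and 0.01. In the list of proteasome partners the log2 fold changes ran from -0.16 for SEM1, a small 19S subunit outside the PSM names, and -0.04 for POMP, the maturation factor of the core, to 0.16 for the deubiquitinase UCHL5 and 0.11 for PAAF1, and 0 of 9 had an unadjusted p under 0.05.

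Among shuttles and ligases, UBE3C, a ubiquitin ligase at the proteasome, had a log2 fold change of 0.14 ± 0.05 (SE, edgeR adjusted p = 0.42), UBQLN4 had 0.11, and the shuttle factors UBQLN2 and RAD23B had -0.14 each. Among ubiquitin genes and activating enzymes, UBA6 had 0.18 ± 0.07 (SE, edgeR adjusted p = 0.44), RPS27A 0.11 and UBA1 -0.05. In neither list did a gene pass the adjusted threshold, and the medians of the 5 lists lay between -0.05 and 0.20, where the median of the 46 proteasome genes was 0.09.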

How the data were processed

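HK-2 libraries (3 IR+NC-LV, 3 IR+PR-LV) were grouped by their labels. For each library the authors deposited counts of reads per gene, without normalization, and TPM and FPKM values, the FPKM not being used here. The submitters' processing notes name CASAVA, featureCounts 2.0.1, DESeq2 1.16.1 and hg38, and the aligner and strand setting are not given in the sources used here. Each table had 38648 rows, and rows sharing a gene name, including those on alternate scaffolds, were summed. If reads matching several copies were divided or dropped, the counts of the 6 proteasome genes with several rows would be affected.

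The main test was edgeR 4.0.16 (R 4.3.3), with TMM factors, its filter on low counts (minimum 10, total 15) and Benjamini-Hochberg adjustment over 15054 genes at a threshold of 0.05. DESeq2 1.42.0, limma 3.58.1 on log2(TPM + 1), other scalings and filters, a replicate block and leaving out libraries were alternatives. Sums and ratios were compared by two-sided exact permutation tests. Intervals are 95%, and a count of 0 was read as allowing 3 counts, which covers counting error only. The fitting script was tested on simulated data. The proteasome genes and all lists were chosen with earlier results of these data known. Every gene was named, with values per library for the catalytic subunits, genes without overlap between the groups (up to 4 with the largest and 4 with the smallest log2 fold change), the 3 highest and 3 lowest in level and those with counts but not tested. PSMC6, PSMD1, PSMD14, PSMB3, PSME1 and PSME2 were added after their values were seen, and of other pathway genes those at an unadjusted p under 0.05 and the 2 largest differences either way per list were named, except that a few genes of the lists are not reported here by name. Promoter sequences are from RefSeq (GRCh38.p14).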

Additional observations from a re-analysis of the deposited data

How the results depend on the processing

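Groups of 3 libraries were too small for a test of outlying libraries, and the depth of 13407074 counts and more limits only genes near 0. With 3 libraries a group, exact tests could not go below 0.1. Of 46 proteasome genes, 0 passed the adjusted threshold in the main analysis and under RLE or upper-quartile scaling and limma. There were also 0 among 45 with a minimum of 10 counts in every library, 45 by single rows and 40 listed once (chosen after seeing the data), but PSMB9 was not tested in these 3. DESeq2 called 1 (PSMB9), and no filter on low counts called 3 (PSMB3 at -1.18, PSMB9 at 2.08, PSMC4 at 1.68 on the log2 scale). Leaving out 1 library gave 0 to 1 calls, PSMC4 without IR+NC-LV replicate 1 and PSMB9 without IR+PR-LV replicate 2. Over all genes 12 were called, against 154 with DESeq2, 354 without the filter, 64 among genes listed once, 18 with the block and 2 to 35 without 1 library. The causes of these differences were not tested.

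The number at an unadjusted p under 0.05 was 7, all higher. It was 3 with limma (6.52%, against 9.29% of all genes in either direction) and 4 among genes listed once (10%, against 11.1% in either direction), all higher. It was 2 to 20 without 1 library (2 to 19 higher, 0 to 1 lower). No filter and the replicate block each had 1 lower. The median log2 fold change was 0.09, 0.048 with limma and 0.054 to 0.131 without 1 library. Over all tested genes the median was 0.004, -0.032 with limma and -0.011 to 0.008 without 1 library. In CPM under each of the 3 scalings, 8 genes were higher without overlap and 0 lower, against 5 and 2 in TPM, and the log2 fold change was positive for 36 of 46 genes, 33 with limma. The share of all genes with a positive value was not computed with limma.

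Whether replicate numbers pair the libraries is not given by the labels, and the correlations were too weak to decide it. Correlations of same-numbered deviations were -0.00, 0.08 and 0.08, or -0.04, 0.21 and 0.09 over genes listed once. The 0.21, for replicates 2, was the highest of all pairs over genes listed once, but IR+NC-LV replicate 1 was closer to IR+PR-LV replicate 2. The replicate block called 1 gene, PSMB9 (2.05, adjusted p = 0.0451), and had 6 at an unadjusted p under 0.05.

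Signs turned for values near 0. PSMB8 was 0.02 and became -0.011 with the block, -0.23 by single rows and as low as -0.55 without 1 library (-0.55 to 0.73). Without 1 library PSMB4 ran from -0.13 to 0.011, PSMB5 from -0.081 to 0.091, PSMB1 from -0.021 to 0.11, PSMG4 from -0.061 to 0.14, PSME1 from -0.79 to 0.59 and PSME2 from -0.31 to 0.44. The log2 ratio of PSMB8 to PSMB5 was 0.01, ran from -0.48 to 0.45 without 1 library and was 0.76 by the row with the most counts, where that of PSMB9 to PSMB6 was 2.13, exact p = 0.2. The 20S sum went from -0.0056 to 0.036 (log2 ratio) with members listed once, 0.065 in CPM and 0.090 with both. In CPM the beta subunits without an active site listed once turned to 0.032 and the immunosubunits to 0.026. CPM sums were chosen after seeing the data. The SD of log2 levels over the 14 core subunits was 1.04 in TPM and 0.758 per GENCODE coding length. Lengths from RefSeq proteins, and the identity of paired subunits, were not run.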
